A study of Mus musculus with 4 samples.

Results

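Autophagy is the route by which a cell encloses part of its cytoplasm in a double membrane, the autophagosome, and delivers it to lysosomes for digestion. A kinase complex around ULK1 starts the process, a lipid kinase complex around Beclin 1 marks the forming membrane, ATG9 and ATG2 proteins supply lipid, and 2 conjugation systems attach the ubiquitin-like proteins of the LC3 and GABARAP family to the membrane, where receptors such as NBR1 and optineurin dock with their cargo. In macrophages the pathway is known for the disposal of intracellular bacteria and damaged mitochondria and for restraint of inflammasome activity. The genes described here are 36 of the 19938 genes represented on the arrays, namely 17 whose symbol in the deposited table begins with Atg and a digit and 19 listed by name, which encode the ULK, PI 3-kinase, WIPI, LC3 and GABARAP proteins and 4 cargo receptors. The choice went by symbol and by name, but it was made with earlier results of these data known. *Atg101*, a partner of ULK1, was present in the table under an older symbol that the pattern did not match, so its value is given apart.

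The arrays profiled peritoneal macrophages of C57BL/6 mice (male, 6 to 8 weeks of age), phagocytes that live in the abdominal cavity, after 6 h in culture with 100 ng/ml LPS, a component of the Gram-negative cell wall, or with PBS as the control. There were 2 biological replicates of each treatment, and every Cy5-labelled sample had a Mouse OneArray Plus array to itself. Whether a replicate stands for another mouse or another well is not stated, so the spread between these 4 samples may be technical. Each limma p-value rests on a gene's spread between these samples, moderated toward the spread of all genes. The study's question was which predicted let-7 targets change with LPS, and autophagy was not part of that question.

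The array of LPS replicate 1 was the dimmest, with 55.8% of probes above background (detection p under 0.05) against 61.7% to 63.3% on the other 3 arrays, and signals were therefore quantile-normalised between arrays before log2 was taken. Of 10 macrophage markers, 9 were above background on all 4 arrays, among them *Adgre1*, *Csf1r*, *Itgam* and *Cd68*. Markers of other cell types were detected too. On all 4 arrays, 3 of 6 B cell markers, 3 of 6 T cell markers, 2 of 5 neutrophil markers, 2 of 3 mast cell markers, 2 of 2 eosinophil markers, 1 of 3 dendritic cell markers and 0 of 3 natural killer cell markers were above background, while *Ms4a1* (B cells), *Cd4* (T cells) and *Ncr1* (natural killer cells) were above it on none. Of 6 markers of mesothelium and fibroblasts, 4 were above background on all arrays. The summed signal of the 6 was 171142 and 232957 in PBS replicates 1 and 2. With LPS it was 73241 in replicate 1 and 269048 in replicate 2. Replicate 2 was the higher in both treatments for the sum and for each of the 4 detected markers, and the LPS samples were further apart in the sum. *Upk3b* had log2 signals of 13.1 and 14.9 with PBS and of 12.2 and 14.8 with LPS. The part of these cells in the results was not tested. In such bulk samples, fewer cells of a type and less RNA per cell cannot be told apart.

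LPS was accompanied by lower signals for part of the autophagy machinery. Of the 36 genes, 3 were lower at an adjusted p under 0.05 (limma with Benjamini-Hochberg adjustment over all 19938 genes), *Map1lc3b*, *Atg4c* and *Atg14*, and 0 were higher. Over all genes the same test called 2.32% lower and 3.22% higher. At an unadjusted p under 0.05, 13 of the 36 were lower and 1, *Optn*, was higher, against 13.9% and 12% of all genes. Both LPS arrays lay below both PBS arrays for 19 of the 36 and above both for 5, whereas 27.5% of all genes lay below and 32.2% above. Among genes above background on every array, 18 of 32 members lay below and 5 above, against 31.8% and 34.1% of 11903 genes. The median log2 fold change of the 36 was −0.38, and 25 values were below 0, while the median over all genes was 0.04. Among genes above background on every array, the median was −0.49 for the 32 members and 0.008 for the 11903 genes. The changes ranged from −2.32 to 0.90 on the log2 scale. A fall of 2-fold or more was measured for 7 of the 36, and a rise of that size for 0. Over all 19938 genes, 1833 fell and 1065 rose by that much. Of the 36, 32 were above background on every array and 3, *Rb1cc1*, *Atg9b* and *Calcoco1*, on none, so these 3 have no usable change.

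**Figure D1:**
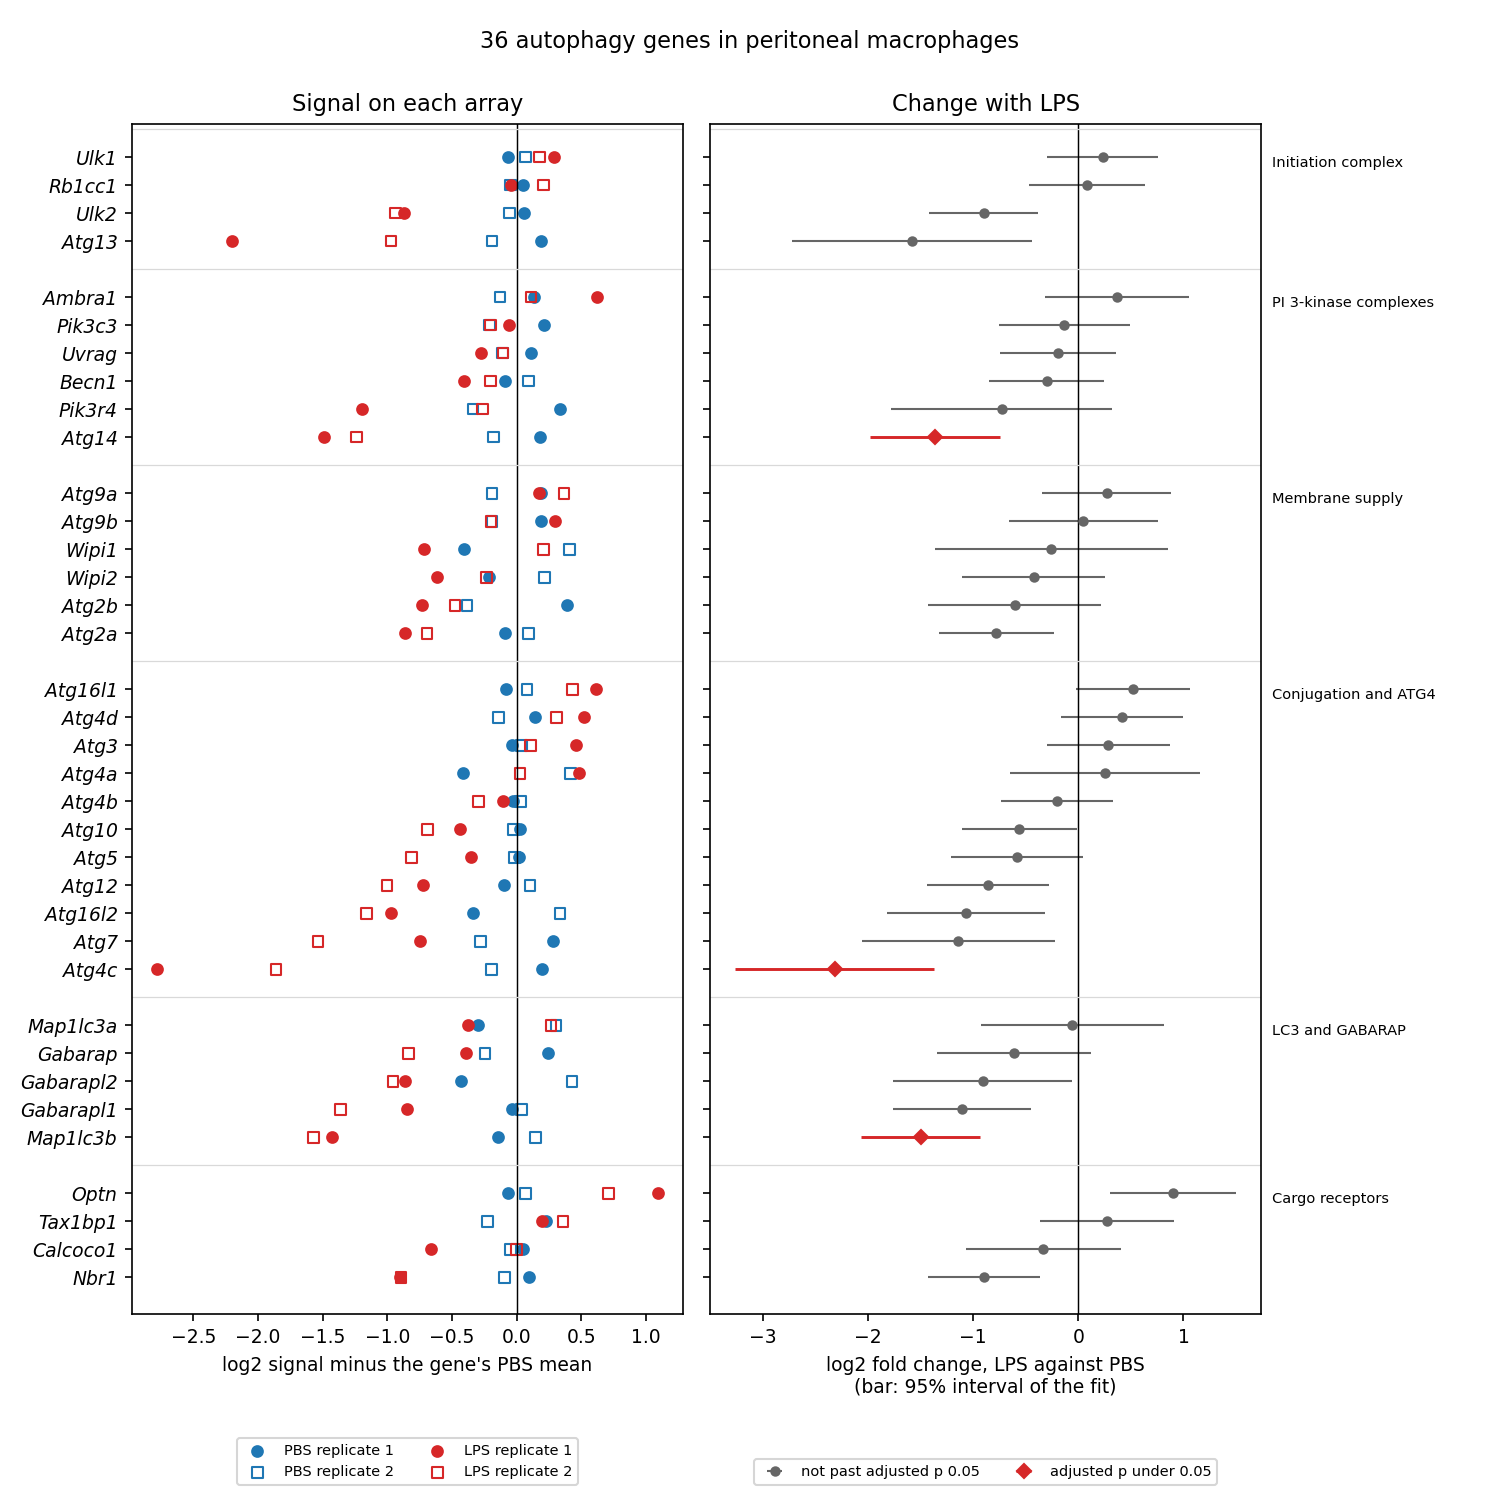
Signals of the 36 autophagy genes. Left, log2 signal on each array minus the gene's mean with PBS (blue, PBS; red, LPS; filled circles, replicate 1; open squares, replicate 2); right, log2 fold change of LPS against PBS with the 95% interval of the limma fit, red diamonds marking an adjusted p under 0.05. Only *Map1lc3b*, *Atg4c* and *Atg14* are marked, and their LPS points lie left of both PBS points.

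**Figure D2:**
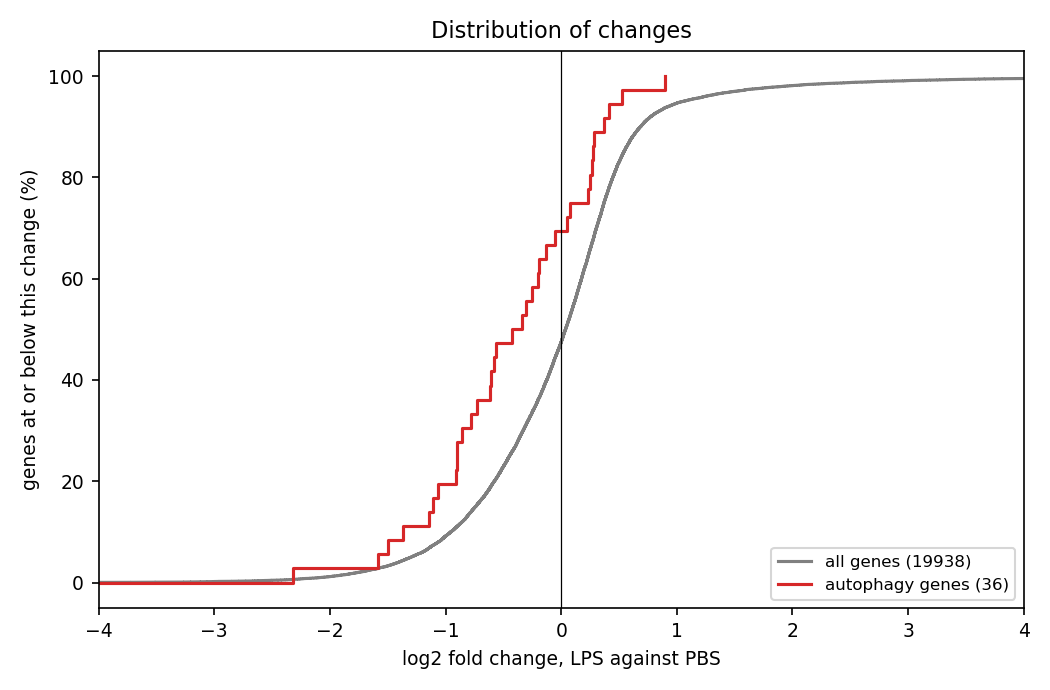
Cumulative distribution of log2 fold changes for the 36 autophagy genes (red) and for all 19938 genes (grey). The x axis gives the log2 fold change of LPS against PBS and the y axis the percentage of genes at or below it; the red curve reaches 50% near −0.38 and the grey curve near 0.04.

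The promoters of the 3 genes past the test are shown because these genes moved in the same direction. Each window runs from 250 bases before to 50 bases after a RefSeq transcription start (GRCm38.p6), in the direction of the gene, and capitals mark the letters of an E-box, CACGTG, the core of the sites that TFEB and related factors bind in lysosomal and autophagy genes. The windows lie at chr8:121590188-121590487 on the plus strand for *Map1lc3b*, at chr4:99193684-99193983 on the plus strand for *Atg4c*, whose other annotated start lies downstream, and at chr14:47568385-47568684 on the minus strand for *Atg14*.
Map1lc3b: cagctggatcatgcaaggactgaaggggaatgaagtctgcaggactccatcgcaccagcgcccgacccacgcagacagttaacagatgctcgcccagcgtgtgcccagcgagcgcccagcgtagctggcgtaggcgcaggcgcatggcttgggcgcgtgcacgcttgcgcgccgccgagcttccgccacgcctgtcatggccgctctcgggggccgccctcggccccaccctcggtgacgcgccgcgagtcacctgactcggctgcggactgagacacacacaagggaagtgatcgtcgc
Atg4c: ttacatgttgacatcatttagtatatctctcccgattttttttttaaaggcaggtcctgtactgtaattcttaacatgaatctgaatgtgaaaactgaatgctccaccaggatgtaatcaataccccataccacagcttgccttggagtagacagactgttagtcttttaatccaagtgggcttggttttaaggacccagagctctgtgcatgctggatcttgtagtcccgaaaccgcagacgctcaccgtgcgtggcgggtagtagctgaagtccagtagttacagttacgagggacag
Atg14: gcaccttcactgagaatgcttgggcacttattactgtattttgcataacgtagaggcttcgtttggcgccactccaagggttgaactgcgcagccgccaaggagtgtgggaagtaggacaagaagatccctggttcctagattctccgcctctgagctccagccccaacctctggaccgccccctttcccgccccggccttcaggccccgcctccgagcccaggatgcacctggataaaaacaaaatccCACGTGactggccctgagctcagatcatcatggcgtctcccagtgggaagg

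The E-box is its own reverse complement, so that both strands read alike. It occurred in 4 of the 34 windows of the 30 genes for which a window was available, against 7.15% of all 32851 windows, and in those of *Map1lc3b* and *Atg4c* it was not found. Besides *Atg14*, where it spans the annotated start, these were *Atg3* with 2 copies, *Atg5* and *Atg7*, given here with 20 bases on each side (chr16:45158715-45158760 and chr16:45158738-45158783, chr10:44268305-44268350, and chr6:114670944-114670989, all on the plus strand).
Atg3, distal: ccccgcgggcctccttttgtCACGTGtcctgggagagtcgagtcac
Atg3, proximal: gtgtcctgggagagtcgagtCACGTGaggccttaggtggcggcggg
Atg5: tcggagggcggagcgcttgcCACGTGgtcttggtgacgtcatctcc
Atg7: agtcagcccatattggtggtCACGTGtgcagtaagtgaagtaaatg

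Of these 4 genes, *Atg14* was lower past the test, *Atg7* and *Atg5* had log2 fold changes of −1.14 and −0.58, and *Atg3* had 0.28 (95% interval −0.30 to 0.87), the last 3 not past the test. A core of the interferon-stimulated response element, spelled GAAA, any 2 bases, then GAAA and searched on both strands, was found in 1 window, of *Nbr1*, against 3.44% of all windows. An NF-κB-like sequence, spelled GGGA, any 3 bases, then TCC and also searched on both strands, was found in 1, of *Atg16l2*, against 4.59%. No window held more than 1 of the 3 kinds of sequence, and the matches describe letters only.

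The LC3 and GABARAP proteins are the ubiquitin-like tags that are joined to lipid on the autophagosome, and all 5 of their genes were above background on every array. *Map1lc3b*, which encodes LC3B, the form most often used to follow autophagosomes, had log2 signals of 16.05 and 16.34 in PBS replicates 1 and 2 and of 14.77 and 14.62 in LPS replicates 1 and 2. The replicates thus lay close together and the groups far apart. The mean fell 2.83-fold, from 16.20 ± 0.20 (SD, n = 2) to 14.69 ± 0.10 (SD, n = 2), a change of −1.501 ± 0.22 (SE) on the log2 scale and an adjusted p of 0.0304 from limma. *Gabarapl1*, a member of the GABARAP branch, had 15.76 and 15.83 with PBS and 14.95 and 14.43 with LPS. Its log2 fold change of −1.11 (95% interval −1.76 to −0.45) did not pass after adjustment (adjusted p = 0.0789), although its LPS arrays lay below both PBS arrays. *Gabarapl2* had 14.70 and 15.56 with PBS and 14.26 and 14.17 with LPS, a log2 fold change of −0.91 (adjusted p = 0.176), and its PBS replicates had an SD of 0.61. *Gabarap* had 17.52 and 17.03 with PBS and 16.89 and 16.44 with LPS (log2 fold change −0.61, adjusted p = 0.250).

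*Map1lc3a*, which encodes LC3A, had a log2 fold change of −0.06 (95% interval −0.93 to 0.81). It had 12.75 and 13.36 with PBS and 12.68 and 13.32 with LPS, and replicate 2 was the higher of each pair. Whether *Map1lc3a* differed from *Map1lc3b* in its change was not tested. The median of the 5 genes was −0.91, and with another background correction, scaling or table, or with an array left out, it lay between −1.15 and −0.66. Probe sequences were not used here, so cross-hybridisation among these similar transcripts was not checked.

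The conjugation enzymes process the LC3 and GABARAP proteins and join them to the membrane, and 7 of their 11 genes had both LPS arrays below both PBS arrays and 3 had them above, where 27.5% and 32.2% of all genes did. *Atg4c*, 1 of 4 genes for the cysteine proteases that trim LC3 and later free it from lipid, had log2 signals of 13.46 and 13.08 with PBS and of 10.49 and 11.41 with LPS. Both LPS values were far below the PBS values, but they were nearly 1 log2 unit apart, and replicate 1 was the lower. The mean fell 4.99-fold, from 13.27 ± 0.27 (SD, n = 2) to 10.95 ± 0.65 (SD, n = 2), a change of −2.32 ± 0.37 (SE) on the log2 scale, the largest of the 36, and an adjusted p of 0.0357 from limma. The other proteases of this kind, *Atg4a*, *Atg4b* and *Atg4d*, had log2 fold changes of 0.25, −0.20 and 0.41, with adjusted p from 0.309 to 0.676. The intervals were −0.66 to 1.16 for *Atg4a*, −0.73 to 0.33 for *Atg4b* and −0.16 to 0.995 for *Atg4d*, and lay above that of *Atg4c*. Whether these genes differed from *Atg4c* in their change was not tested.

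*Atg7* encodes the E1-like enzyme that activates both ubiquitin-like systems. It had 13.37 and 12.81 with PBS and 12.34 and 11.56 with LPS, groups that did not overlap but whose replicates were widely spaced, and its log2 fold change of −1.14 did not pass (adjusted p = 0.137). *Atg16l2*, a relative of *Atg16l1* whose function is less well described, had 10.65 and 11.33 with PBS and 10.02 and 9.83 with LPS (log2 fold change −1.07, adjusted p = 0.111). *Atg12*, the ubiquitin-like partner of ATG5, had −0.86 on the log2 scale and did not pass (adjusted p = 0.101), and its second probe gave −0.58. *Atg5* (−0.58, adjusted p = 0.217) and *Atg10*, the E2-like enzyme for ATG12 (−0.56, adjusted p = 0.185), did not pass either.

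Other genes of the same step had values above 0. *Atg16l1*, which encodes the scaffold that directs LC3 lipidation to the membrane, had 12.47 and 12.63 with PBS and 13.16 and 12.98 with LPS, with both LPS arrays above both PBS arrays. Its log2 fold change was 0.52 (95% interval −0.02 to 1.06, adjusted p = 0.206). *Atg3*, the E2-like enzyme for LC3, had 0.28 (adjusted p = 0.463). *Atg4d* was measured by a second probe, which gave 0.29 in place of 0.41. The median of the 11 genes was −0.56.

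The PI 3-kinase complexes produce the lipid PI3P on the forming membrane, and among their 6 genes *Atg14* alone passed the test. ATG14 is the subunit that places the Beclin 1 complex at sites of autophagosome formation. *Atg14* had log2 signals of 12.48 and 12.12 with PBS and of 10.82 and 11.06 with LPS, with no overlap between groups. The mean fell 2.57-fold, from 12.30 ± 0.25 (SD, n = 2) to 10.94 ± 0.18 (SD, n = 2), a change of −1.36 ± 0.24 (SE) on the log2 scale and an adjusted p of 0.0444 from limma. *Becn1*, which encodes Beclin 1 itself, had 15.65 and 15.83 with PBS and 15.33 and 15.53 with LPS, a log2 fold change of −0.30 (95% interval −0.85 to 0.25, adjusted p = 0.414). The catalytic subunit *Pik3c3* had −0.13 (95% interval −0.75 to 0.49), and *Uvrag*, which takes the place of ATG14 in the complex of the endosomal route, had −0.19 (95% interval −0.75 to 0.36). *Pik3r4*, the regulatory kinase subunit, had −0.73, but its LPS arrays read 12.01 and 12.95 and straddled PBS replicate 2 at 12.87. *Ambra1*, a regulator of Beclin 1 and ULK1, had 0.37 (adjusted p = 0.425).

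The initiation complex phosphorylates its partners when nutrients fall or mTOR is inhibited, and 0 of its 4 genes passed the test. *Ulk2*, a relative of *Ulk1*, had log2 signals of 11.56 and 11.45 with PBS and 10.64 and 10.57 with LPS. Its replicates agreed to within 0.08 (SD) in each group, and its log2 fold change of −0.90 (95% interval −1.42 to −0.39) had an adjusted p of 0.0736 from limma. *Ulk1*, the main kinase of the complex, had 13.20 and 13.34 with PBS and 13.55 and 13.45 with LPS (log2 fold change 0.23, 95% interval −0.29 to 0.76), so that the intervals of the 2 kinases did not overlap. The difference between them was not tested. *Atg13*, the adaptor that links ULK1 to the rest of the complex, had 13.45 and 13.06 with PBS but 11.06 and 12.28 with LPS. Its log2 fold change of −1.58 (adjusted p = 0.115) did not pass. Without LPS replicate 1 it was −0.95, and without LPS replicate 2 it was −2.21 and passed (adjusted p = 0.0421). A second *Atg13* probe gave −1.06. *Rb1cc1*, which encodes FIP200, was below background on every array. *Atg101*, which the rule left out, had 14.54 and 14.18 with PBS and 13.88 and 13.68 with LPS (log2 fold change −0.58, adjusted p = 0.209).

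Among the genes that supply or recruit membrane, 0 of 6 passed the test. *Atg2a*, which encodes a lipid transfer protein, had 11.89 and 12.07 with PBS and 11.11 and 11.29 with LPS, without overlap (log2 fold change −0.78, adjusted p = 0.109). Its homologue *Atg2b* had −0.60 and was above background on only 1 of the 2 LPS arrays. *Atg9a*, the gene of the membrane-spanning scramblase that seeds the structure, had 0.27 (95% interval −0.34 to 0.88), and *Atg9b* was below background on every array. The PI3P-binding proteins *Wipi1* and *Wipi2* had −0.26 and −0.43. *Wipi1* had 11.68 and 12.50 with PBS and 11.37 and 12.30 with LPS, with replicate 2 the higher in both groups.

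The cargo receptors link cargo to proteins of the LC3 and GABARAP family, and 0 of their 4 genes passed the test. *Optn*, which encodes optineurin, a receptor for bacteria and damaged mitochondria, had 12.36 and 12.49 with PBS and 13.52 and 13.14 with LPS. Both LPS arrays lay above both PBS arrays, and the log2 fold change of 0.90 (95% interval 0.30 to 1.5) was the highest of the 36 but did not pass (adjusted p = 0.0995). *Nbr1* had 13.49 and 13.30 with PBS and 12.49 and 12.50 with LPS, a log2 fold change of −0.90 (95% interval −1.43 to −0.37, adjusted p = 0.0778). *Tax1bp1*, which encodes a receptor that also restrains NF-κB signals, had 0.28 (95% interval −0.36 to 0.91), and *Calcoco1* was below background on every array. The median of the 4 was −0.03, and without *Calcoco1* it was 0.28. It was also above 0 with 75th percentile scaling (0.15), cyclic loess (0.06) and the second deposited table (0.07). Without PBS replicate 1 or LPS replicate 1 it was 0.12 and 0.17. It was below 0 with the other background correction (−0.01), without PBS replicate 2 (−0.18) or LPS replicate 2 (−0.23), and without scaling (−0.20). For the other role groups the median was below 0 under each other background correction, scaling and table and with each array left out.

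**Figure D3:**
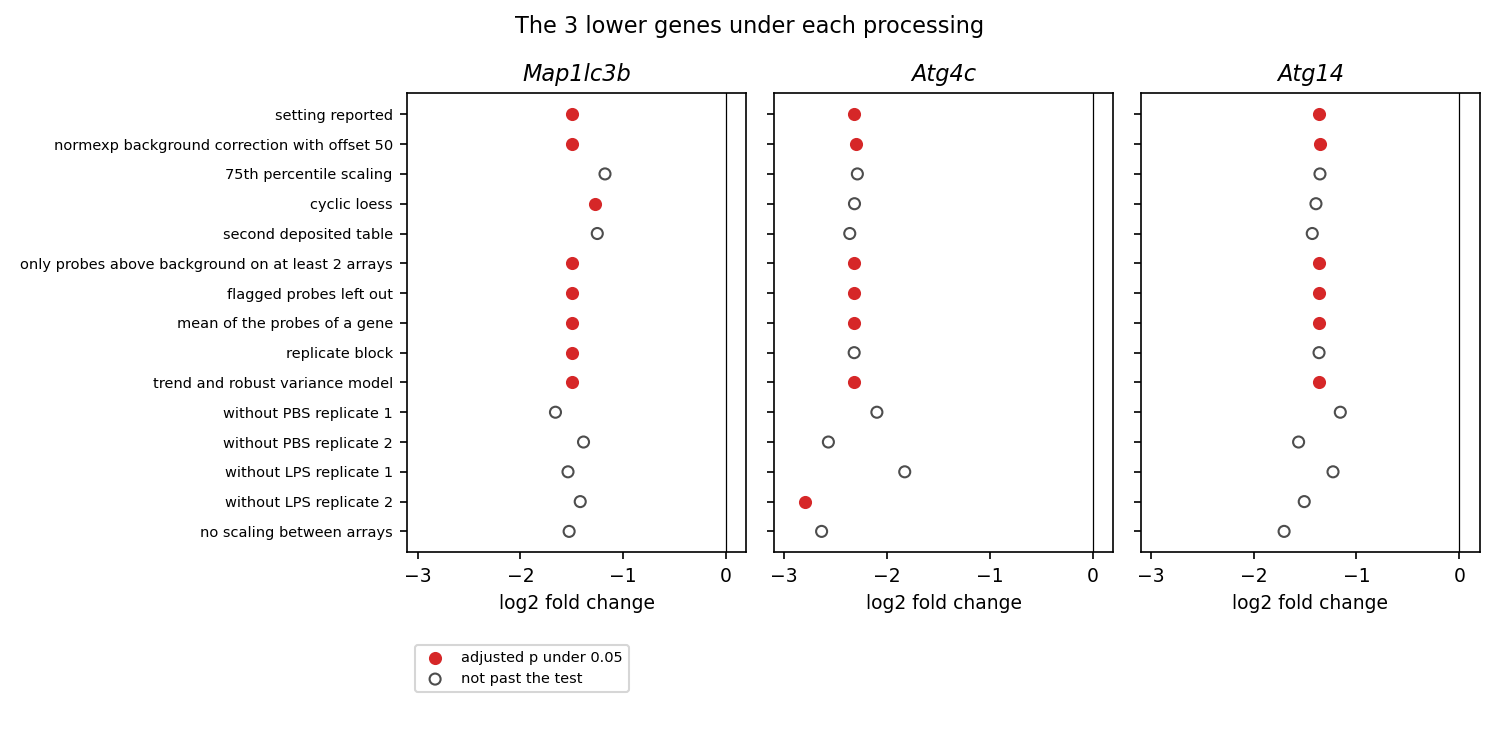
Log2 fold change of *Map1lc3b*, *Atg4c* and *Atg14* (x axis) under each limma fit (y axis); filled red points have an adjusted p under 0.05 and open points do not. All points lie below 0, and most of the fits that leave out an array or scale the arrays in another way have open points.

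The 3 genes kept their direction under each other background correction, scaling and table and with each array left out, but not their calls. The log2 fold change lay between −1.66 and −1.18 for *Map1lc3b*, between −2.80 and −1.83 for *Atg4c* and between −1.70 and −1.16 for *Atg14*. Leaving out PBS replicate 1, PBS replicate 2 or LPS replicate 1 ended all 3 calls, and leaving out LPS replicate 2 ended those of *Map1lc3b* (adjusted p = 0.0712) and *Atg14* (0.0715) and kept that of *Atg4c* (0.0341). The adjusted p without LPS replicate 1 was 0.0845 for *Map1lc3b*, 0.0752 for *Atg4c* and 0.123 for *Atg14*; without PBS replicate 1 it was 0.142, 0.177 and 0.233, and without PBS replicate 2 it was 0.223, 0.175 and 0.197. Calls over all genes dropped in most of these fits as well, from 462 lower genes to 10 when PBS replicate 1 was left out, to 1 for PBS replicate 2 and to 96 for LPS replicate 1, against 641 for LPS replicate 2. All 3 calls were also lost with 75th percentile scaling, with the second deposited table and without scaling, and cyclic loess kept that of *Map1lc3b* alone. With replicate number added to the limma fit as a block, *Map1lc3b* alone passed (adjusted p = 0.0454). The values were then 0.0559 for *Atg4c* and 0.0611 for *Atg14*.

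Of 53 other genes of the pathway, listed with earlier results of these arrays known, 51 were found under the listed symbols. Of these 51, 6 were lower and 3 higher past the test (limma, adjusted over all genes). The shares of all genes were 2.32% lower and 3.22% higher. The median log2 fold change of the 51 was −0.41. Of 10 genes that join autophagosomes to lysosomes, 3 fell and 0 rose. *Tecpr1*, which encodes a tether on lysosomes, had 15.03 and 15.31 with PBS and 13.42 and 13.29 with LPS (log2 fold change −1.82, adjusted p = 0.0193). *Stx17*, the SNARE of the completed autophagosome, fell by 1.36 on the log2 scale (adjusted p = 0.0415), and *Plekhm1*, a Rab7 effector, fell by 1.44 (adjusted p = 0.04997). *Rab7* (0.06), *Vamp8* (−0.04), *Epg5* (0.02), *Snap29* (0.31), *Ykt6* (−0.28), *Vps39* (−0.84) and *Vps41* (−0.70) did not pass. For *Vps39* and *Vps41* both LPS arrays lay below both PBS arrays, and for *Snap29* above both.

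Of 9 other receptors, 2 fell and 0 rose. *Bnip3l*, which encodes the mitophagy receptor NIX, had 15.40 and 15.88 with PBS and 13.90 and 14.01 with LPS (log2 fold change −1.69, adjusted p = 0.0304), and *Retreg1*, an endoplasmic reticulum receptor, had −2.21 (adjusted p = 0.0396). *Sqstm1*, which encodes the receptor p62, had 15.03 and 15.07 with PBS and 16.28 and 15.45 with LPS. Both LPS arrays lay above both PBS arrays, but their SD was 0.59, and the log2 fold change of 0.81 did not pass (adjusted p = 0.204).

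*Sesn1*, which encodes a stress-induced inhibitor of mTOR complex 1, was the other lower gene. It had 14.99 and 15.08 with PBS and 12.26 and 10.71 with LPS, a log2 fold change of −3.55 (adjusted p = 0.0302) with widely spaced LPS replicates. The higher genes were *Irgm1*, an interferon-inducible GTPase of autophagy in defence against bacteria, with 11.996 and 11.76 with PBS and 15.98 and 16.46 with LPS (log2 fold change 4.34, adjusted p = 0.00399), *Dram1*, a lysosomal membrane protein known as a target of p53 and NF-κB (2.00, adjusted p = 0.0223), and *Prkaa2*, a catalytic subunit of AMP-activated kinase (1.44, adjusted p = 0.0406, above background on 1 of the 2 PBS arrays). *Prkaa1*, which encodes another catalytic subunit of that kinase, had −0.475 and did not pass (adjusted p = 0.241, limma). Its LPS arrays both lay below both PBS arrays. *Tfeb*, the transcription factor of lysosomal genes, had −0.53 (95% interval −1.17 to 0.12, above background on 1 of the 2 LPS arrays). *Mtor* had −0.30 (95% interval −0.88 to 0.28). Without PBS replicate 2 0 of these 51 genes passed, without PBS replicate 1 or LPS replicate 1 the number was 1 and 2, and without LPS replicate 2 it was 4.

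**Figure D4:**
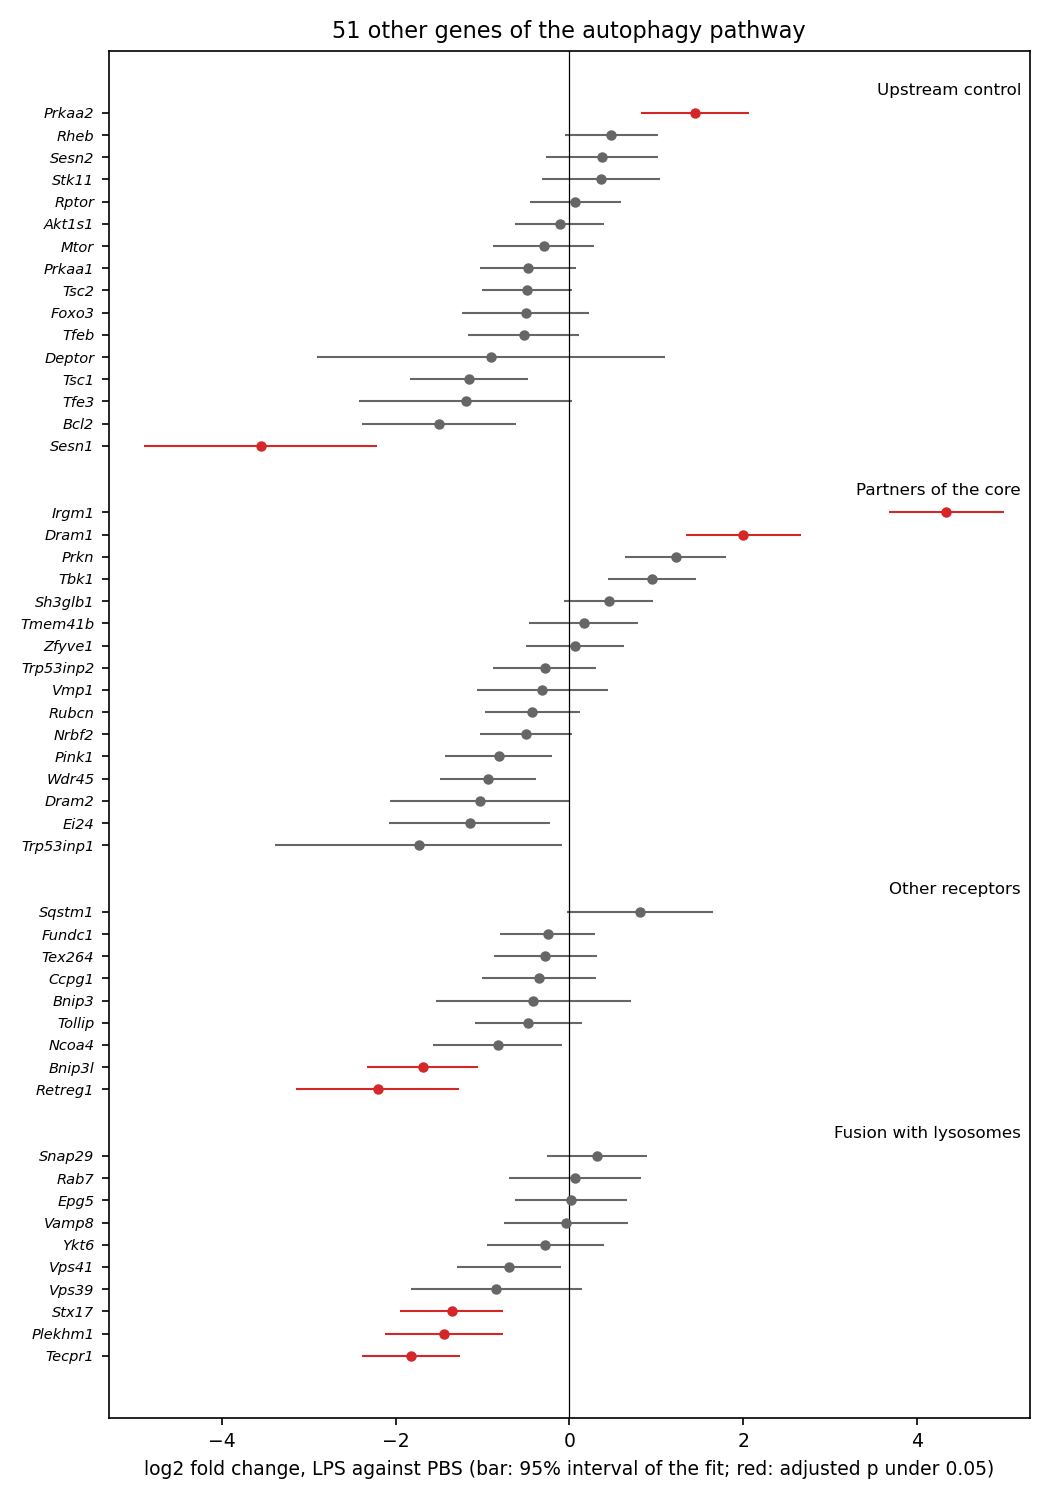
Log2 fold change of LPS against PBS (x axis) for the 51 other genes of the pathway (y axis), grouped by role, with the 95% interval of the limma fit; red marks an adjusted p under 0.05. *Irgm1*, *Dram1* and *Prkaa2* lie to the right and *Sesn1*, *Retreg1*, *Tecpr1*, *Bnip3l*, *Plekhm1* and *Stx17* to the left.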

How the data were processed

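RNA of 4 samples of peritoneal macrophages was amplified, labelled with Cy5 and hybridised, 1 sample to an array. The deposited table gives, for each probe, the raw intensity, the detection p-value and a flag. The sources used here name neither the scanner nor the background method. Because 60 intensity values, all on LPS replicate 1, were at or below 0, the table was taken as background-subtracted. The authors' second deposited table holds the same intensity multiplied by 1 constant per array.

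Intensities were quantile-normalised over 26423 probes and converted to log2. Symbols were updated through RefSeq synonyms, and the brightest probe stood for a gene. All 36 members were found, 3 with 2 probes each, and 0 of their probes carried a flag. LPS was compared with PBS by limma 3.58.1 in R 4.3.3, with Benjamini-Hochberg adjustment over 19938 genes, dim probes included. The fit had 2 residual degrees of freedom and 3.11 prior ones, which come from the spread of all genes. The number of arrays limits the precision. The methods tie no test to the arrays. The test was checked on simulated data with independent noise, which cannot show how deviations shared between samples would affect it.

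The rule for named genes took members past the test and members whose log2 fold change was 1 or more in size, with their values on each array, and genes of the wider list past the test. Other genes given with array values or by name were chosen after their values were seen. The members and lists were chosen with earlier results of these data known. Promoters came from RefSeq (GRCm38.p6) and were matched by symbol for 30 members. Of the lists of markers of other cell types, only the T cell list had a gene past the test, *Lck*, which was higher. Of the macrophage list, 2 were higher. Alternatives covered background correction, scaling, the second table, removal of dim or of flagged probes, averaging of probes, the replicate block, the variance model, a t-test and each array left out.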

Additional observations from a re-analysis of the deposited data

How the results depend on the processing

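With 2 arrays per treatment, the counts of genes past the test depended on the scaling and on each array. The lower members numbered 3 in the reported setting, 0 with 75th percentile scaling, 1 with cyclic loess, 0 with the second deposited table and 0 without scaling, which was added after the data had been seen. The wider list then gave 1 higher and 0 lower, 3 and 2, 1 and 1, and 1 and 1. Without scaling the median of the members was −0.66, where that of all genes was −0.35. Over all genes, 642 were higher and 462 lower in the reported setting, 398 and 131 with 75th percentile scaling and 327 and 111 with the second deposited table. With only probes above background on at least 2 arrays, 5 of the wider list were higher. The methods' t-test, run on groups of 2 and so of little power, gave 2 higher and 8 lower members and 7 higher and 9 lower genes of the wider list unadjusted, and 0 of each after Benjamini-Hochberg.

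Leaving out each array, with the remaining array of its treatment given the spread of the other treatment, left 0 to 2 lower members, with 0 higher throughout, and 0 to 1 higher and 0 to 3 lower genes of the wider list, while over all genes 141 were higher and 10 lower without PBS replicate 1, 39 and 1 without PBS replicate 2, 276 and 96 without LPS replicate 1, and 415 and 641 without LPS replicate 2. The median of the members was −0.42 to −0.25 in these fits. With the replicate block, 1 member, *Map1lc3b*, was lower, and the adjusted p (limma) was 0.0559 for *Atg4c* and 0.0611 for *Atg14*. The labels give the shared numbers no common origin, and with 2 pairs the numbers were not taken to pair the samples. Some cell type markers nevertheless differed by replicate number alike in both treatments. *Adgre1* had 16.3 and 15.2 with PBS and 16.7 and 15.8 with LPS in replicates 1 and 2. *Timd4* had 9.8 and 8.8 with PBS and 12.4 and 11.3 with LPS. Others, such as *Ltf* and *Cpa3*, did not. The deviations of same-numbered samples correlated at r = 0.24 across all genes, 0.37 across genes above background on all 4 arrays and −0.04 across the members.

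No called member changed direction, but 8 members that passed the test in 0 of these settings did. With 75th percentile scaling the log2 fold change became −0.17 for *Atg9b*, 0.023 for *Becn1*, 0.029 for *Map1lc3a* and −0.10 for *Rb1cc1*. It became 0.003 for *Map1lc3a* with cyclic loess, and −0.25 for *Atg9b* and −0.17 for *Rb1cc1* with the second deposited table. Without scaling it was −0.044 for *Atg4a*, −0.079 for *Atg9a*, −0.52 for *Atg9b* and −0.45 for *Rb1cc1*. Over the fits that leave out an array it ranged from −0.16 to 0.67 for *Atg4a*, from −0.19 to 0.28 for *Atg9b*, from −0.37 to 0.26 for *Map1lc3a*, from −0.36 to 0.079 for *Pik3c3*, from −0.048 to 0.20 for *Rb1cc1* and from −0.73 to 0.21 for *Wipi1*. The cause was not tested.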
